A study of Mus musculus with 36 samples.

Results

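Palates labelled TGFβ3−/− were compared with palates labelled WT at embryonic day (E) 16.5, the last of the 3 ages sampled, when the palate of a normal mouse embryo has closed. The members were chosen by their labels for genotype and age: 8 of the 36 libraries of the series, from 4 of its 18 animals. The series measured poly(A) RNA of palatal shelves by paired-end sequencing in 9 groups, each of the 3 genotypes at each of 3 ages, with 2 biological replicates per group and 2 sequencing lanes per replicate. By their labels, the TGFβ3−/− animals (KO 1, KO 2) had both copies of the transforming growth factor β3 gene disrupted and the WT animals (WT 1, WT 2) had neither. All embryos were of strain C57BL/6, came from matings of TGFβ3+/− parents and were genotyped from tail DNA. The disrupted allele is inherited, so it is not limited to the palate or to a cell type. The sources do not say whether 1 replicate was 1 embryo, so an animal here means 1 biological replicate. The p-values measure the spread between the samples of this series only, shared over all 9 groups and not taken from the 4 animals alone. The 2 TGFβ3+/− animals of the same age (HET 1, HET 2) are given beside the comparison for reference. Levels are in FPKM, the authors' measure of fragments per length of transcript and per size of the library, as the mean of the 2 lanes of an animal.

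The transforming growth factor β (TGFβ) ligands are secreted proteins that are kept inactive by latency proteins, bind type I and type II receptor kinases, and signal through Smad transcription factors. In the palate, Tgfb3 is made in the edge epithelium of the shelves, where it acts on the seam between them, and mice without it are born with a cleft. After closure, bone forms in the front of the palate, muscle forms in the soft palate, and the oral side becomes a stratified epithelium.

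The 4 animals differed in more than the label of genotype. Xist, the RNA that marks an inactive X chromosome, had no assembled locus in any of the 4 TGFβ3−/− libraries and stood at 63.1 FPKM in WT 1 and 101 FPKM in WT 2. The 4 Y-linked genes examined, Ddx3y, Eif2s3y, Kdm5d and Uty, had the reverse pattern. Ddx3y stood at 15.8 FPKM in KO 1 and in KO 2 and Eif2s3y at 19.5 and 17.1 FPKM, whereas no WT library had a locus of any of the 4. Genotype and sex thus cannot be told apart at E16.5. HET 1 had Xist (99.7 FPKM) and no Y-linked locus, and HET 2 had Y-linked RNA (Ddx3y 15.9 FPKM) and Xist at 0.0378 FPKM. The part of sex in the differences below was not tested. A fit with the Y-linked level as a covariate is given below, but it does not isolate sex. Its slope came mainly from WT at E14.5 and E15.5 and HET at E16.5, where the 2 animals differed in Y-linked RNA. Those animals also differed in other genes. At E15.5 the cartilage list deviated by a median of −1.88 in WT 1 and 0.788 in WT 2 (log2 scale). Values with this covariate carry such differences as well.

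Libraries also differed in how their reads were assembled. They held 21377 to 30380 loci each. The share of loci on annotated exons was 66.7% to 69.5% in KO 1, 75.8% to 78.5% in KO 2, 81.4% to 83.4% in WT 1 and 73.3% to 75.8% in WT 2. The median half-width of the 95% interval given for a locus was 13.1% to 18.8% of its value, with the highest in KO 1. Across 12031 genes, the Pearson correlation of log2(FPKM + 1) was 0.97 between the TGFβ3−/− animals and 0.939 between the WT animals, and KO 2 correlated with WT 1 at 0.973. Genes are not independent replicates, so these are descriptions. The WT animals thus resembled each other less than KO 2 resembled WT 1. The deposited values hold no read totals, and depth per library was not analysed here.

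No gene passed the test. Of 13135 genes tested with limma on log2(FPKM + 1), 0 were called at an adjusted p under 0.05 and a fold of at least 2 (0% called), and 0 passed the adjusted p alone, with a smallest adjusted p of 0.238. Leaving out 1 animal gave 2 calls without KO 1, 38 without KO 2, 4 without WT 1 and 6 without WT 2, each with 1 animal left in its group and assumed to vary like the other groups. At an unadjusted p under 0.05, 346 genes were higher in TGFβ3−/− palates (2.63%) and 936 were lower (7.13%). These counts depended on the spread, which the fit shares over all 9 groups. With only the 4 animals in the model, 211 genes were higher (1.63%) and 400 lower (3.09%) at that p. With the 6 animals of E16.5, 179 were higher (1.38%) and 508 lower (3.9%). Counts of members below use the fit of all 9 groups. A mean difference of at least 2-fold was found for 107 genes with TGFβ3−/− higher (0.815%) and 113 lower (0.86%). The median difference over all tested genes was −0.09 on the log2 scale. Of the 1282 genes at that p with FPKM as deposited, 27% were higher. After scaling each animal to a common median ratio, 529 genes were higher and 622 lower at that p (46% higher), and after scaling to a common sum 695 were higher and 485 lower (58.9% higher). The tilt toward lower genes therefore depended on the scaling. With 2 animals against 2, an exact two-sided permutation test of 1 gene cannot go below 0.333, so levels are given for each animal. The animals of the 2 genotypes did not overlap for 1378 of 12207 genes with TGFβ3−/− higher (11.3%) and for 2973 with TGFβ3−/− lower (24.4%). These shares, and those at an unadjusted p under 0.05, are the background for the counts of members below. Counts of members by the direction of the mean have no such share beside them. As the median over all genes was below 0, a lower mean was the more common direction. Heterozygous against WT animals gave 0 calls among 13182 genes (0%) and TGFβ3−/− against heterozygous 0 among 13163 (0%). At E14.5, 1 of 12604 genes was called (0.00793%) and at E15.5 1 of 12947 (0.00772%). The difference of the TGFβ3−/− minus WT contrast between E16.5 and E14.5 was called for 0 of 12370 genes (0%), with 168 higher (1.36%) and 567 lower (4.58%) at an unadjusted p under 0.05. The same test against E15.5 called 0 of 12719 genes (0%), with 371 higher (2.92%) and 444 lower (3.49%) at an unadjusted p under 0.05.

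Differences moved with the length of a gene. In 5 equal groups of 2627 genes by annotated exonic bases, from shortest to longest, the median log2 difference was −0.18, −0.14, −0.11, −0.07 and 0.01. In the shortest group 42 genes were higher and 330 lower at an unadjusted p under 0.05, and in the longest 187 were higher and 72 lower. Across genes, Spearman's rho of the difference with exonic length was 0.243 (13135 genes). Exonic length is therefore given beside some of the long genes named below.

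**Figure D1:**
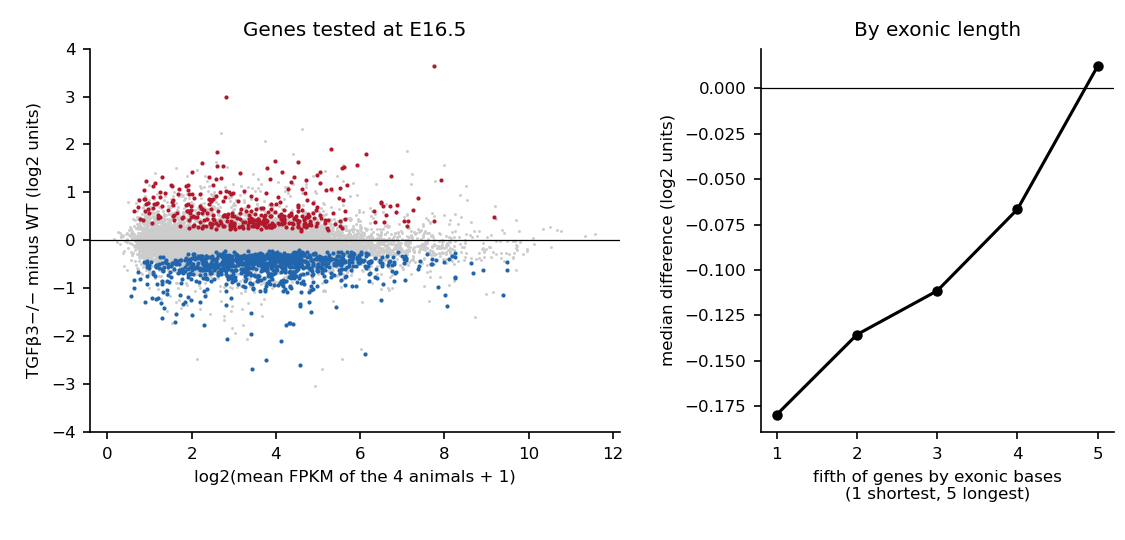
Log2 difference of TGFβ3−/− minus WT palates at E16.5 for each tested gene against its mean level (left; 1 gene lies outside the plotted range of ±4), and the median difference in 5 equal groups of genes by exonic length (right). The median runs from −0.18 in the shortest group to 0.01 in the longest.

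Tgfb3, the targeted gene (chr12:87397694-87419991 in NCBIM37, minus strand), stood at 42.6 FPKM in KO 1, 42 in KO 2, 27.6 in WT 1 and 35.3 in WT 2. Both TGFβ3−/− animals lay above both WT animals, by 0.43 on the log2 scale (SE 0.16, limma adjusted p = 0.464). The lanes differed: lane 6 gave 49.6 and 52 FPKM in TGFβ3−/− and 26.8 and 34.7 in WT, whereas lane 7 gave 35.7 and 31.9 against 28.3 and 36, where WT 2 lay above both TGFβ3−/− animals. The difference of Tgfb3 was 0.72 in lane 6 alone and 0.077 in lane 7 alone. HET 1 was at 37.3 FPKM and HET 2 at 37.1. Genotyping detected a neomycin cassette in the disrupted allele. Exons that this allele may still transcribe count toward the summed level, which therefore does not check the genotype labels.

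Among the 14 ligands and latency genes, the median difference was 0.24, with 4 members higher and 0 lower at an unadjusted p under 0.05, and 6 higher against 1 lower without overlap of the animals. Tgfb2, a sister ligand of the palate mesenchyme, stood at 19.1 and 20.4 FPKM in the TGFβ3−/− animals and at 13.5 and 15.6 in the WT animals (0.42, SE 0.15, limma adjusted p = 0.456). Ltbp1, which tethers latent TGFβ to the matrix, was at 20.1 and 17.8 against 14 and 15.2 FPKM (0.35, SE 0.14, adjusted p = 0.476). Ltbp4, of the same family, was at 46.5 and 30.1 against 24.1 and 29.9 FPKM (0.46, SE 0.19, adjusted p = 0.485), and KO 2 there was close to WT 2. Tgfb1 did not separate the genotypes, with 24.2 and 18.3 FPKM in TGFβ3−/− and 17.7 and 24.1 in WT. None of these passed the test. The other members ran from −0.36 (Inhbb) to 0.40 (Ltbp3). With the Y-linked level as a covariate, the difference of Tgfb2 was 0.17 and that of Tgfb3 0.38. After the trend with exonic length was removed from each animal, the median of the 14 genes was 0.15.

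**Figure D2:**
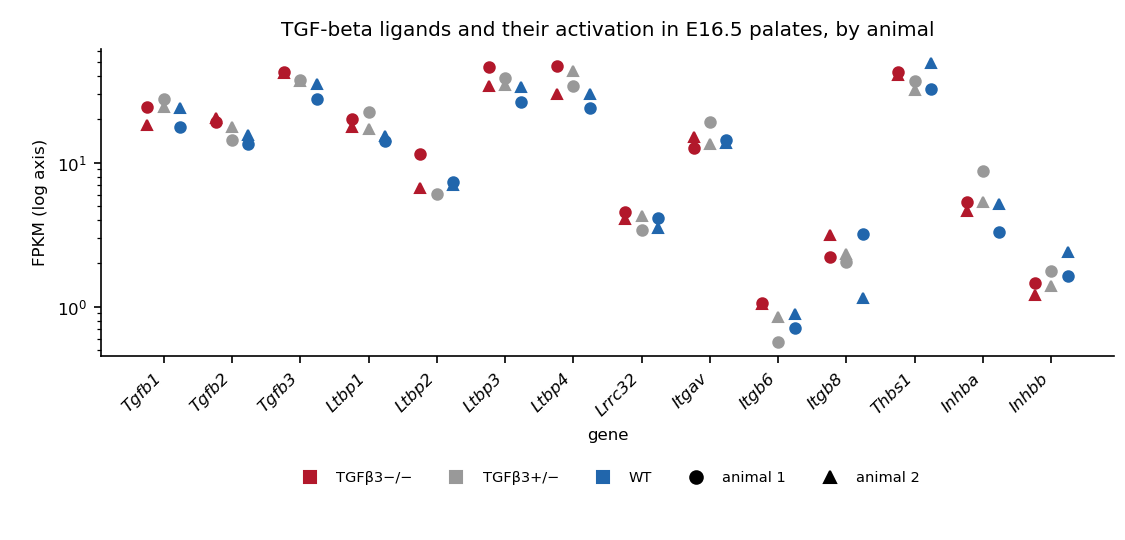
FPKM (log axis) of the 14 TGFβ ligand and latency genes in each animal at E16.5, for the 3 genotypes; circles are animal 1 and triangles animal 2. Tgfb3 and Tgfb2 lie higher in both TGFβ3−/− animals than in both WT animals, and Tgfb1 overlaps.

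Receptors and Smads showed small differences. Of the 11 receptors and coreceptors tested among 14 listed, 0 had an unadjusted p under 0.05 and the median was −0.04. Tgfbr1, the type I receptor, was at 19.6 and 26.6 FPKM in TGFβ3−/− and 26.6 and 30.4 in WT (−0.30, 95% interval −0.74 to 0.14). Tgfbr2, the type II receptor, was at 16.6 and 16.8 against 15.1 and 15.3 FPKM (0.13, 95% interval −0.11 to 0.36). The other receptors ran from −0.26 (Acvr1b) to 0.19 (Tgfbr3). Without KO 1 the median of the receptors was 0.11, and with the Y-linked level as a covariate −0.18. Among 14 Smads and regulators the median was −0.04 with 0 members at an unadjusted p under 0.05, and the sign of that median flipped under other scalings. Smad7, the inhibitory Smad that the pathway itself induces, was at 4.96 and 3.80 against 5.62 and 6.17 FPKM (−0.37, SE 0.20, adjusted p = 0.546). Smad2, Smad3 and Smad4, which carry the signal, had differences of 0.14, −0.07 and 0.13, and the other members ran from −0.30 (Skil) to 0.17 (Ski).

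Of 26 TGFβ response genes, 3 were higher and 2 lower at an unadjusted p under 0.05, with a median of 0.08. Mmp13, a collagenase of bone and cartilage, was at 28 and 35.4 FPKM in TGFβ3−/−, 60.3 and 55.8 in WT, 103 in HET 1 and 45.4 in HET 2 (−0.86, SE 0.39, adjusted p = 0.508). With the Y-linked level as a covariate its difference was 0.012. Timp1, an inhibitor of metalloproteinases, was at 23.1 and 17.5 FPKM in TGFβ3−/− and 42 in WT 2, with no value for WT 1, so its test (−1.03, SE 0.40, adjusted p = 0.472) assumes that the lone WT animal varies like the other groups. Leaving it aside, 1 response gene was lower at an unadjusted p under 0.05. Col3a1, a collagen, was at 713 and 634 against 468 and 493 FPKM (0.48, SE 0.18, adjusted p = 0.462). Tsc22d1, a TGFβ-induced transcription factor, was at 45.5 and 66.1 against 80.3 and 79.9 FPKM (−0.54), and had a difference of 0.26 when only the locus covering most of its exonic bases was read.

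The skeletal muscle genes stood out by size. Of 36 tested among 42 listed, 34 had a higher mean in TGFβ3−/− palates and the median difference was 1.14, against −0.09 over all genes. At an unadjusted p under 0.05, 6 were higher and 0 lower. Without overlap of the animals, 31 of the 32 with all 4 values were higher and 0 lower, beside 11.3% and 24.4% of all genes. The level summed over the members with a value in all 4 animals was 1942 and 1832 FPKM in TGFβ3−/−, 1269 in WT 1 and 404 in WT 2, so WT 2 stood lowest. In a bulk sample, more muscle cells in the piece and more RNA per muscle cell cannot be told apart.

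The heterozygous animals stood far apart. The median deviation of the muscle genes from their mean over the 6 animals, on the log2 scale, was 0.81 in HET 2, which had Y-linked RNA, and −0.65 in HET 1, which had Xist. It was 0.54 and 0.51 in the TGFβ3−/− animals and −0.04 and −1.35 in the WT animals. For the earlier ages the deviations are from the mean of the 4 TGFβ3−/− and WT animals of that age. At E14.5 KO 1 and WT 1, both with Y-linked RNA and almost no Xist, had the lowest and the highest median deviation, −0.67 and 0.57. KO 2 and WT 2 of that age held both kinds of RNA, with Xist at 17.2 and 128 FPKM and Ddx3y at 10.2 and 1.75 FPKM. The reason was not tested. At E15.5 WT 2, with Y-linked RNA, was at 0.015 and the other animals, with Xist, were at 0.16, −0.57 and 0.43. Without WT 2 the median difference was 0.52, without WT 1 it was 1.91, and with the Y-linked level as a covariate it was 0.60.

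Mylpf, a light chain of fast muscle, stood at 355 and 375 FPKM in TGFβ3−/−, 132 and 503 in HET, and 214 and 68.9 in WT (1.58, SE 0.78, adjusted p = 0.526). Acta1, skeletal α-actin, was at 306 and 267 FPKM in TGFβ3−/− and 230 and 63.7 in WT, with 98.3 in HET 1 and 362 in HET 2. Myog, the transcription factor that drives myoblast differentiation, was at 34.6 and 31.9 against 15.1 and 6.66 FPKM (1.63, SE 0.69, adjusted p = 0.492). In these 3 genes WT 2 was the lowest animal of the comparison. Myh8, the perinatal myosin heavy chain, was at 77.6 and 40.2 against 29.6 and 6.57 FPKM (1.90, SE 0.72, adjusted p = 0.464). Myh3, the embryonic myosin, was at 103 and 73.8 against 46.8 and 17.3 FPKM. Neb, the giant filament protein with 26369 exonic bases, was at 11.2 and 6.20 against 4.24 and 0.947 FPKM. Its loci covered 87.6% to 98% of those bases in TGFβ3−/− libraries and 36.4% to 49.1% in WT libraries. Levels are weighted by the bases covered, so this gap in coverage is part of the difference of Neb.

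The promoters of Acta1 and Myog are shown as examples of the elements that muscle genes carry, from RefSeq sequence of build GRCm38.p6, the 150 bases before each start, 5′ to 3′. Capitals in Acta1 (chr8:123894776-123894925, minus strand) mark a CArG box, the site of serum response factor, and in Myog (chr1:134289854-134290003, plus strand) an E-box, CANNTG, the site of myogenic basic helix-loop-helix factors.
Acta1: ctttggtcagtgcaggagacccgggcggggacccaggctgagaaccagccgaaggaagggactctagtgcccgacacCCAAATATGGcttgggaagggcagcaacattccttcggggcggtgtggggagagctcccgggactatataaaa
Myog: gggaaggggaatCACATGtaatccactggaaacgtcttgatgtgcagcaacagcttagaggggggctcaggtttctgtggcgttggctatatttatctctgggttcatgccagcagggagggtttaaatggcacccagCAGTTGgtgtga

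The CArG box was 73 bases before the start of Acta1, and the E-boxes were 138 and 12 bases before the start of Myog. Of 26 list members with a promoter in the table, 4 held a CArG box and 16 an E-box on either strand, against 0.916% and 47.7% of 32851 promoters. A member counted if any of its promoters matched, whereas the shares are of promoters, so these are unlike counts. Matches describe the letters only.

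Epithelial genes of the oral side were higher in mean as well. Of 24 tested among 33 listed for periderm, oral and cornified epithelium, 20 had a higher mean in TGFβ3−/− palates, 5 were higher and 0 lower at an unadjusted p under 0.05, and the median difference was 0.65. Without overlap of the animals, 16 of 22 were higher and 1 lower. The summed level was 1734 FPKM in KO 1, 1099 in KO 2, 774 in WT 1 and 1015 in WT 2, so KO 1 stood highest. Without KO 1 the median difference was 0.32 and without KO 2 it was 0.96. The median deviation from the mean of the 6 animals was 0.52 in HET 1, −0.09 in HET 2, 0.50 in KO 1, −0.16 in KO 2, −0.60 in WT 1 and −0.37 in WT 2. With the Y-linked level as a covariate the median difference was 1.64. Basal epithelial genes had a median of 0.22 over 21 members, and 17 of these had a higher mean. That median was 0.044 without KO 1, 0.01 without WT 1, 0.39 without WT 2 and 0.61 with the Y-linked level as a covariate.

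Sprr3, a small proline-rich precursor of the cornified envelope, stood at 98.3 and 43.6 FPKM in TGFβ3−/−, 73.8 and 40.8 in HET, and 20.5 and 24.4 in WT (1.51, SE 0.41, adjusted p = 0.43). Sprr1a, of the same family, was at 100.2 and 46.2 against 26.1 and 20 FPKM (1.54, SE 0.51, adjusted p = 0.451). The small proline-rich genes resemble each other, so the counting may have split their reads, and the loci assembled for them covered from 49.2% to 163% of their exonic bases. Krt4, a keratin of the oral mucosa, was at 179 and 124 FPKM in TGFβ3−/−, 159 and 109 in HET, and 59.6 and 57.3 in WT (1.34, SE 0.45, adjusted p = 0.436). Its partner Krt13 was at 539 and 334 against 205 and 239 FPKM (0.94, SE 0.84, adjusted p = 0.71). In these 4 genes both TGFβ3−/− animals lay above both WT animals, and so did both heterozygous animals. The simple keratins Krt8, Krt18 and Krt19 had differences of −0.51, −0.42 and −0.44. Krt5, Krt14 and Krt15 of the basal layer had differences of 0.30, 0.30 and 0.43. Over the alternative settings Krt5 ran from −1.23 to 0.896, Krt14 from −0.00676 to 1.33 and Krt15 from 0.223 to 0.783.

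The promoters of Sprr1a, Sprr3 and Mmp13 are shown because AP-1 sites, TGANTCA, are known in genes of cornifying epithelium and of matrix breakdown. Sequences are again RefSeq, GRCm38.p6, 150 bases before each start: Sprr1a (chr3:92485882-92486031, minus strand), Sprr3 (chr3:92458721-92458870, minus strand) and Mmp13 (chr9:7272364-7272513, plus strand). Capitals mark AP-1 sites.
Sprr1a: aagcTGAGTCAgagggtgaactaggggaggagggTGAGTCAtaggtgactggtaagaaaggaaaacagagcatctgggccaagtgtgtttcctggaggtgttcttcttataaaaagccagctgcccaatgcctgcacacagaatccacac
Sprr3: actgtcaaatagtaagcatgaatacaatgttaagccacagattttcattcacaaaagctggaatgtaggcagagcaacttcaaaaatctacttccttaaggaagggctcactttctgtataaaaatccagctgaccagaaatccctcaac
Mmp13: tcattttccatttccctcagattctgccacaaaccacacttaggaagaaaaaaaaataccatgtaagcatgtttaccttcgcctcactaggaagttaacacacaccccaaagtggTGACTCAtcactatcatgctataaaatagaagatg

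Sprr1a held 2 such sites, 146 and 116 bases before the start, Mmp13 held 1 at 35 bases, and Sprr3 held 0 in this window. Of 16 list members with a promoter in the table, 6 held an AP-1 site, against 4.24% of 32851 promoters. Here too members were counted by gene and the share by promoter. Matches of this kind say nothing about binding.

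**Figure D3:**
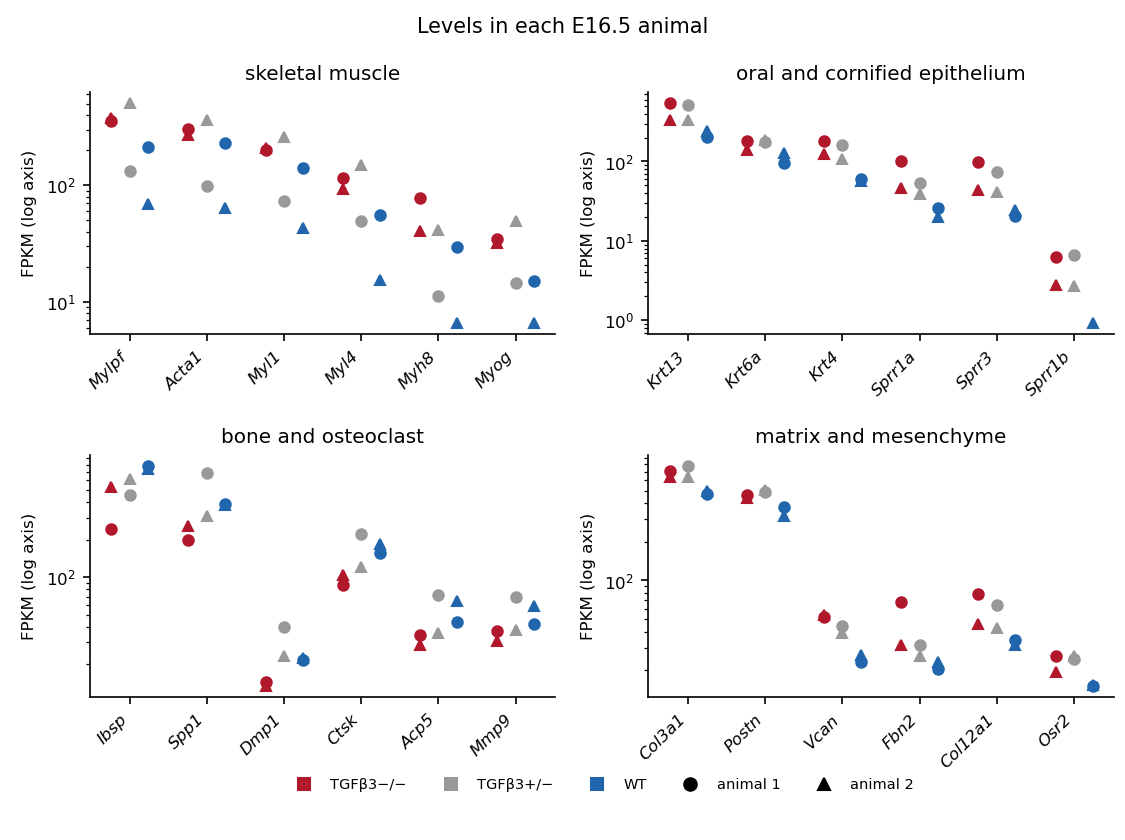
FPKM (log axis) by animal at E16.5 for genes of muscle, of oral and cornified epithelium, of bone and osteoclasts, and of matrix and mesenchyme; circles are animal 1 and triangles animal 2. WT 2 lies lowest in the muscle panel, and the TGFβ3−/− animals lie lowest for Ctsk, with 86.3 and 105 FPKM.

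Genes of bone resorption were lower in mean. All 8 osteoclast genes tested had a lower mean in TGFβ3−/− palates, with a median of −0.48 against −0.09 over all genes. Without overlap of the animals 5 were lower, beside 24.4% of all genes, and 1 was lower at an unadjusted p under 0.05. Ctsk, the collagen-degrading protease of osteoclasts, stood at 86.3 and 105 FPKM in TGFβ3−/−, 157 and 185 in WT, 224 in HET 1 and 121 in HET 2 (−0.84, SE 0.28, adjusted p = 0.436). Acp5, tartrate-resistant acid phosphatase, was at 34.6 and 28.6 against 43.9 and 64.6 FPKM, and Mmp9 at 36.8 and 30.6 against 42.4 and 59.2. HET 1 had the highest level of each of these 3 genes. The list's median was −0.28 without WT 2 and −0.13 with the Y-linked level as a covariate.

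Osteoblast and bone matrix genes had a median of −0.17 over 17 genes, with 1 lower and 0 higher at an unadjusted p under 0.05. Spp1, osteopontin, was at 197 and 256 FPKM in TGFβ3−/−, 688 in HET 1, 309 in HET 2, and 389 and 378 in WT (−0.77, SE 0.35, adjusted p = 0.508). Ibsp, bone sialoprotein, was at 243 and 526 against 777 and 743 FPKM (−1.09, SE 0.87, adjusted p = 0.676), and Dmp1, of mineralizing osteocytes, at 14.5 and 13.4 against 21.7 and 22.6 FPKM. Sp7 and Dlx5, transcription factors of osteoblasts, had differences near 0 (−0.0019 and −0.02). The list's median took the opposite sign, 0.05, with the Y-linked level as a covariate.

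Matrix genes were higher in mean for 22 of the 28 tested, with a median of 0.23, 8 higher and 1 lower (Timp1, with 1 WT value) at an unadjusted p under 0.05, and 13 higher and 1 lower of 26 without overlap. Vcan, the large proteoglycan versican with 14467 exonic bases, stood at 51.8 and 54.1 FPKM in TGFβ3−/−, 44.3 and 39.2 in HET, and 23.3 and 26.3 in WT (1.07, SE 0.33, adjusted p = 0.43). Fbn2, fibrillin-2 with 10480 exonic bases, was at 67.5 and 31.6 against 20.5 and 23.2 FPKM (1.05, SE 0.36, adjusted p = 0.436). Col12a1, a fibril-associated collagen with 15228 exonic bases, was at 77.8 and 46.1 against 34.2 and 31.6 FPKM (0.85, SE 0.28, adjusted p = 0.43). Both TGFβ3−/− animals lay above both WT animals in each of these 3 genes, all of which are long. After the trend with exonic length was removed from each animal, the differences were 0.84, 0.90 and 0.61. The list's median was then 0.23 as well.

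The marker genes of the labelled tissue were present. The 29 palatal mesenchyme genes tested summed to between 446 and 543 FPKM in the 4 animals, with a median difference of 0.13. Osr2, a transcription factor of the growing shelves, was at 25.7 and 19.3 FPKM in TGFβ3−/− and 15.1 and 15.3 in WT (0.53, SE 0.23, adjusted p = 0.502). Prrx1, Pdgfra and Twist1 of the mesenchyme had differences of 0.13, 0.15 and −0.23. Genes of other tissues were also present, and these lists do not tell cells of the palate from cells beside it. The respiratory and olfactory epithelium list had a median of −0.42 over 14 genes, with 2 lower at an unadjusted p under 0.05. This median was −0.76 without WT 1 and −0.23 without WT 2. The list summed to 639, 601, 698 and 886 FPKM in KO 1, KO 2, WT 1 and WT 2. Rsph1, of motile cilia, was at 31.2 and 28.5 against 38.4 and 65.5 FPKM (−0.73, SE 0.29, adjusted p = 0.477). The neural and Schwann list summed to 450, 663, 1310 and 310 FPKM in that order, so the WT animals were the extremes. Its median of −0.17 was 0.70 without WT 1, −0.83 without WT 2 and 0.24 without KO 1. The part that differing amounts of these tissues had in the other results was not tested.

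**Figure D4:**
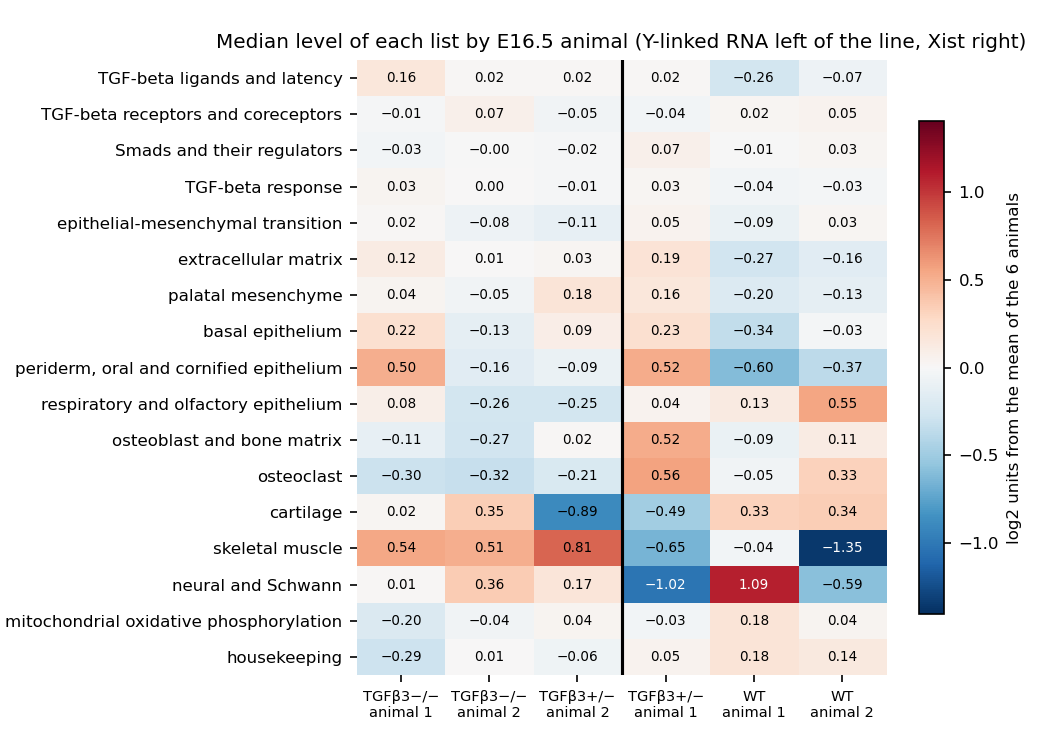
Median deviation of each of 17 gene lists in each of the 6 animals at E16.5 from the mean of the animals (log2 scale), with the animals that had Y-linked RNA left of the line and those with Xist right of it. The muscle list runs from 0.81 in HET 2 to −1.35 in WT 2.

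**Figure D5:**
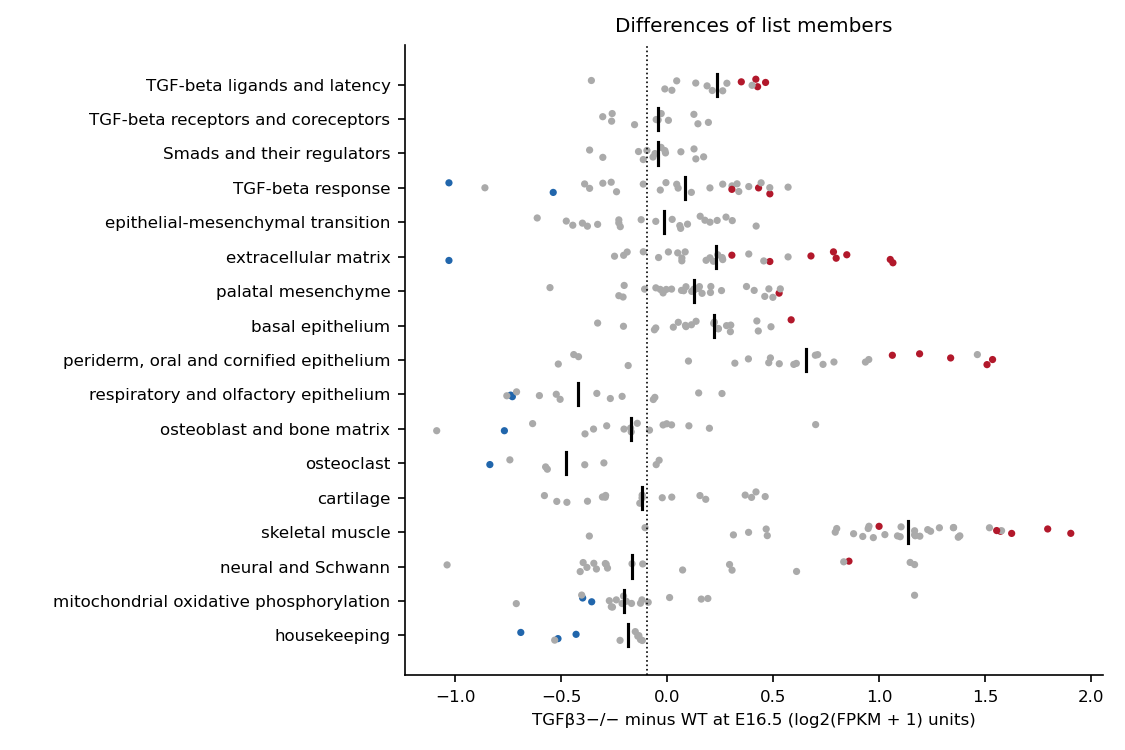
Log2 difference of TGFβ3−/− minus WT for each tested member of 17 lists; red and blue dots are members higher or lower at an unadjusted p under 0.05, the black bar is the list's median and the dotted line the median of all genes. The bars lie furthest from the dotted line for muscle (1.14) and for oral and cornified epithelium (0.65).

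Signal pathways of palate growth had 0 members at an unadjusted p under 0.05. Their median differences were hedgehog 0.18 over 12 genes, BMP −0.12 over 16, Wnt −0.07 over 26 and FGF 0.08 over 14. The hedgehog median was 0.024 without WT 1 and 0.35 without WT 2. The sign turned for BMP without KO 1 (0.056), for FGF with the Y-linked covariate (−0.074) and for Wnt after scaling to a common sum (0.035). The 22 genes of epithelial-mesenchymal transition had a median of −0.01, which was 0.086 without WT 2, and 0 members at that threshold. Of 24 cell cycle genes 1 was higher at that threshold: Mki67, the proliferation antigen with 10075 exonic bases, at 34.7 and 25.4 against 18.9 and 23.1 FPKM (0.49, SE 0.15, adjusted p = 0.43). Pcna, the sliding clamp of DNA replication, had levels the other way round, at 42.2 and 46.7 against 88.6 and 70.2 FPKM.

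Housekeeping and respiratory-chain genes had lower means too. The 10 housekeeping genes had a median of −0.19, 7 lower without overlap and 3 lower at an unadjusted p under 0.05. The 19 oxidative phosphorylation genes had a median of −0.21 and 12 lower without overlap. After scaling to a common sum these medians were −0.07 and −0.09.

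Of 322 listed genes tied to cleft palate in people or mice, 268 were tested, with a median of 0.02, 22 higher and 10 lower at an unadjusted p under 0.05 (8.21% and 3.73%, against 2.63% and 7.13% of all genes). Without overlap of the animals, 62 of 252 were higher and 40 lower. The median of this list was −0.004 without KO 2 and −0.006 with the higher-numbered lane only. It was −0.023 after the trend with exonic length was removed and −0.040 with the Y-linked covariate. The study drew up this list from databases, and Tgfb3 itself is in it. Tgfb2, Myh3, Neb and Vcan, described above, are in it as well, so its counts are not separate from those of the lists above. Among genes chosen after their values were seen, Frem2, a basement membrane protein with 12378 exonic bases, was at 7.05 and 4.48 against 2.60 and 3.23 FPKM (0.77, SE 0.21, adjusted p = 0.43), and Fras1, its partner in the same complex with 15848 exonic bases, at 5.01 and 4.37 against 1.82 and 3.19. Of the genes the study followed for their patterns over genotypes, a choice made on these samples, 7 of 8 were tested, with a median of 0.17, which was −0.074 with the Y-linked covariate, and 0 at an unadjusted p under 0.05. Chrng, the embryonic subunit of the muscle acetylcholine receptor, was at 6.35 and 6.12 against 3.80 and 1.93 FPKM (0.95, SE 0.52, adjusted p = 0.546). Six3, a forebrain transcription factor, was at 6.69 and 4.53 against 1.78 and 3.81 FPKM (0.83, and −0.31 with the Y-linked covariate). Foxc2, Lhx8, Meox2 and Shh had differences of −0.12, 0.13, 0.53 and 0.17, and Kcnj13 was not tested. H19 had the highest level among them, at 3317 and 3112 against 2586 and 3285 FPKM.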

How the data were processed

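Poly(A) RNA of mouse palatal shelves was sequenced in 36 libraries, 9 groups of 2 biological replicates with 2 lanes each. Per the labels and the study's methods, the authors checked reads with FastQC 0.10.1, mapped them to NCBIM37 (mm9) with TopHat 1.4.1, assembled transcripts in each library with Cufflinks 1.3.0 and deposited FPKM with a 95% interval for each assembled locus, without gene names or strand. Loci differ between libraries, so a gene's level depends on how its reads were assembled, and antisense or overlapping genes cannot be told apart.

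Loci were joined by position (bedtools 2.31.1) to 26233 genes of GENCODE vM1, and a gene's FPKM was summed over its loci by exonic bases covered. Where a locus spanned 50% or more of a second coding gene's exons, or a gene's own exons lay to that extent under its neighbours' loci, the level was treated as missing. The 2 lanes of an animal were averaged. The filter required FPKM ≥ 1 in ≥ 2 animals (14050 genes), and 13135 of these had a value in both groups, 928 of them lacking 1 or 2 of the 4 values. limma 3.58.1 (R 4.3.3) was fitted to log2(FPKM + 1) over all 9 groups with a mean-variance trend, Benjamini-Hochberg adjusted over all genes tested, two-sided, and called at an adjusted p under 0.05 and a fold of at least 2. Differences are on the log2(FPKM + 1) scale, which understates those of low genes. The code was tested on simulated data.

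The 37 gene lists and the members compared were chosen with earlier results of these data known, so lists are described by counts and medians with no test of a list. Of the list genes, 810 were matched by symbol, 14 by RefSeq synonym and 9 were unmatched. Genes were named from the ligands, receptors and Smads, the genes the study followed, and the 3 most abundant and 4 most different members of each list; members not printed are covered by counts, ranges and medians. Other genes were chosen after their values were seen, among them the Y-linked genes, Xist, the simple keratins, Sp7, Dlx5, Frem2 and Fras1. Alternatives changed the pseudocount, filter, scaling, lane, animals, model and gene summary. A fit without length trends, one with Y-linked RNA, one without the sex chromosomes, one with crossed pairing and one with unassembled genes at 0 were chosen after the data were seen. 1 result is not reported here.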

Additional observations from a re-analysis of the deposited data

Results flagged for a closer look

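5 gene lists had a median difference of TGFβ3−/− minus WT at E16.5 of the opposite sign to that at an earlier age, with the animals of the 2 genotypes ordered the opposite way, among 36 lists compared with E14.5 and E15.5. With 2 animals against 2, separation in 1 direction or the other has a probability of 0.333 at each age where genotype makes no difference. The number of lists flagged in that case was not computed, so the count is a description. The difference between ages was not tested for a list. Per gene it was called for 0 of 12370 genes against E14.5 and 0 of 12719 against E15.5 with limma. Genes of periderm, oral and cornified epithelium had a median of 0.65 at E16.5 and −1.34 at E15.5. Matrix genes had 0.23 at E16.5 and −0.19 at E15.5. Smooth muscle and pericyte genes had 0.19 and −0.26 at these ages, and hedgehog genes 0.18 and −0.19. At E16.5 the hedgehog order rested on a median deviation of 0.0783 in KO 2 against 0.0778 in WT 2. Hypoxia and glycolysis genes had −0.063 at E16.5 and 0.12 at E14.5. In the epithelial list, Krt4 stood at 11.1 and 13.6 FPKM in TGFβ3−/− and 43.7 and 10.4 in WT at E15.5, so WT 1 alone lay apart there.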

How the results depend on the processing

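The count of called genes, 0, was 0 as well under the other pseudocounts, filters, scalings, the lower-numbered lane, fewer animals in the model, no trend, the largest locus, complete genes, no length trend, the Y-linked covariate and without the sex chromosomes. It was 3 with the higher-numbered lane only, 1 with genes without a locus set to 0, 1282 at an unadjusted p under 0.05, and 2 to 38 with 1 animal left out. Without KO 2 the group rested on KO 1, the animal with the lowest share of loci on exons. Of list members 0 to 1 were called with 1 animal left out (Cldn5 without WT 2). The difference between ages called 0 genes, against 2 (E14.5) and 1 (E15.5) with a pseudocount of 0.1, 1 (E15.5) with the filter at FPKM 5, and 0 to 1 with 1 animal left out.

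The replicate block, with the 6 animals of E16.5, called 0 genes, and it changed no other call. The same numbers did not mark shared deviations (r = −0.372 for TGFβ3−/− and WT, 0.087 and −0.508 with HET, over 12031 genes). Crossed pairing called 1 gene.

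The list medians below moved; the cause was not tested. With a pseudocount of 5, ligands were 0.11 and osteoclast −0.25. With the higher-numbered lane, ligands were 0.11 and TGFβ response −0.00351. With a common sum, Smads were 0.066, osteoblast −0.027, endothelium 0.025, matrix 0.33 and cell death 0.00635. With a common median ratio Smads were 0.031, and with the largest locus 0.00688. With the Y-linked covariate, TGFβ response was −0.023, oral and cornified epithelium 1.64, osteoblast 0.049, osteoclast −0.13, FGF −0.074, the genes the study followed −0.074, cartilage −1.30, erythroid 0.80, respiratory −0.73, tooth 0.66, basal epithelium 0.61, neural −0.61 and receptors −0.18. With 1 animal left out, Smads ranged from −0.076 to 0.027, TGFβ response from −0.00788 to 0.15, osteoclast from −0.64 to −0.28, muscle from 0.52 to 1.91, BMP from −0.20 to 0.056 and matrix from 0.18 to 0.33. Of 2720 values of 131 genes, which include every tested gene named above, 8 reversed: Tsc22d1 0.26 and Hdc −0.66 (largest locus), Ifitm5 −0.065 (lower-numbered lane), Twist1 0.074, Meox2 −0.16, Six3 −0.31 and Kdm6a 0.12 (Y-linked covariate), and Itgb8, from −0.20 to 0.77 with 1 animal left out. Cldn5 (adjusted p = 0.0431 without WT 2) and Chchd6 (0.049 without KO 2) passed the adjusted p. The sign of an uncalled gene counted only where the difference exceeded its SE and the other value exceeded 0.05. Mmp13 (0.012 with the Y-linked covariate) is therefore not among the 8. Genes with a difference below its SE are left out as well, such as Krt5 (0.30, SE 0.35), which went down to −1.23.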

Other observations

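Among genes chosen after their values were seen, several of the smallest p-values belonged to genes with tight levels in both genotypes, though none passed the adjusted p. Lama2, a laminin of muscle and nerve basement membrane with 9728 exonic bases, stood at 9.68 and 9.30 FPKM in TGFβ3−/−, 6.04 and 4.33 in HET, and 4.41 and 4.25 in WT (0.98, SE 0.18, limma adjusted p = 0.302), and at 0.84 after the length trend was removed. Hspg2, the basement membrane proteoglycan perlecan with 14357 exonic bases, was not tight. It was at 62.4 and 33.3 against 13.6 and 19.3 FPKM (1.43, SE 0.39, adjusted p = 0.43). Pus10, a pseudouridine synthase, was at 4.05 and 3.71 against 9.05 and 7.48 FPKM (−0.92, SE 0.15, adjusted p = 0.238). Chchd6, of the mitochondrial inner membrane, was at 22.8 and 23.4 FPKM in TGFβ3−/−, 24.6 and 25.7 in HET, and 32.3 and 35.1 in WT (−0.52, SE 0.09, adjusted p = 0.238).

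Six2, a transcription factor of craniofacial mesenchyme and kidney progenitors, stood at 41.7 and 46.7 FPKM in TGFβ3−/−, 18.8 and 18.8 in HET, and 17.1 and 16.1 in WT (1.36, SE 0.45, adjusted p = 0.43). Its loci covered 94.5% to 200% of its exonic bases, more than once where loci overlap. Bases covered more than once also count more than once in its level. At E15.5 Six2 was at 46 and 25.9 FPKM in TGFβ3−/− and 13.1 and 45.6 in WT, so the animals of the 2 genotypes overlapped there.

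Of 26233 annotated genes searched, 36 had a locus in all 4 TGFβ3−/− libraries and in none of the WT libraries. Of these, 7 had a lowest level of at least 1 FPKM: the 4 Y-linked genes, Sct, Dysfip1 and Spink2. Sct, Dysfip1 and Spink2 also had a locus in 2, 2 and 3 of the 4 HET libraries. The reverse pattern held for 4 genes, of which 1, Xist, had a lowest level of at least 1 FPKM. Such counts depend on assembly: KO 1 held 28818 and 30380 loci, against 21377 to 24837 in the WT libraries. The part of assembly in these counts was not tested. Kdm6a, an X-linked gene that escapes inactivation, was at 7.87 and 8.45 FPKM in TGFβ3−/− and 11.6 and 12.9 in WT (−0.53, SE 0.26, adjusted p = 0.528). Granulocyte and mast cell genes had a median of 0.42 over 9 genes, 6 of 8 higher without overlap and 0 at an unadjusted p under 0.05. Tpsb2, a mast cell tryptase, was at 12.8 and 9.49 against 5.26 and 6.25 FPKM. Macrophage and endothelial genes had medians of −0.01 and −0.08, and smooth muscle and pericyte genes 0.19 (0.062 without KO 2). Cartilage genes had a median of −0.12 over 18 genes, which was 0.095 without KO 1, −0.32 without KO 2 and −1.30 with the Y-linked covariate. Tooth genes had 0.17 over 7 genes, and 0.66 with that covariate.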
